A study of Mus musculus with 17 samples.

Results

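The genes described here act in MHC class II antigen presentation. The 10 members, H2-Aa, H2-Ab1, H2-Eb1, H2-DMa, H2-DMb1, H2-Oa, Cd74, Ciita, Ctss and Cd86, were picked by gene symbol from a table of 23719 gene entries, and all 10 were found. Colon RNA was sequenced from male C57BL/6 mice, 32 to 34 weeks old, to ask what a past exposure to pyridostigmine bromide leaves in the colon. The 9 Control mice were given water. The 8 mice of the Gulf War illness (GWI) group drank water with 2 mg/kg of pyridostigmine bromide, which blocks acetylcholinesterase reversibly, over 7 days and then recovered for 21 days, and the methods place tissue collection at 30 days. The model uses this agent alone, in males only, and the layers of the colon held in each explant were not named in the sources used here. Total counts per colon were 16744096 to 20741212 in the Control group and 16293537 to 18389686 in the GWI group.

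MHC class II molecules present peptides from endosomes to CD4 T cells. An alpha and a beta chain assemble on the invariant chain, endosomal proteases trim that chain, and peptide exchange factors then load the groove before the complex reaches the cell surface. In the gut the genes are read mainly in dendritic cells, macrophages and B cells, and epithelial cells can switch them on under interferon gamma.

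Some libraries stood apart from the rest of their group. Fabp6, an ileal bile acid binding protein, had 2677 counts in Control replicate 6 and 5695 in Control replicate 7, against 10 to 133 in the other colons. Lyz1, a Paneth cell lysozyme, had 4263 and 5984 counts in the same colons and 23 to 167 in the others. In Control replicate 9 mitochondrial transcripts took 19.5% of the counts, against 6.11% to 14.2% elsewhere. This share was 6.26% to 9.76% in the GWI colons, and Control replicates 1, 2, 7, 8 and 9 lay above every GWI colon. The difference between the groups was not tested. Where a named gene was no longer called without Control replicates 6 and 7, the adjusted p without them is given. The tissue label was checked against colon epithelium markers (Car1, Car4, Slc26a3, Aqp8, Krt20, Muc2, Epcam, Cdh1, Vil1, Cdx2), whose summed level was 19100 to 40196 CPM, counts relative to the TMM-scaled library size, over the 17 colons. The sum was lowest in Control replicate 1, where single markers also stood apart: Aqp8 was at 1934 CPM, against a Control median of 28.9 CPM and 24.0 to 1047 CPM in the GWI colons, Slc26a3 at 2230 CPM, against a Control median of 402 CPM, and Car1 at 1988 CPM, against one of 12049 CPM. Without this colon 2295 genes were lower and 2523 higher, the highest counts of the fits that left out 1 colon, and 8 members were lower.

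In the main test transcripts of the class II chains H2-Aa, H2-Ab1 and H2-Eb1 and the invariant chain were lower in GWI than in Control colons. So were H2-DMa and H2-DMb1 of the loading factor H2-DM, the regulator Ciita and the costimulatory ligand Cd86. The protease Ctss was not, and the chain H2-Oa was too scarce for that test. Of the 10 members 9 passed the filter on low counts and were tested, and 8 of these 9 were lower and 0 higher at an adjusted p under 0.05 (edgeR quasi-likelihood test, Benjamini-Hochberg adjustment over all tested genes). With the first part of the sample name as a random block (estimated correlation 0.62) 0 of the 9 were called, with a lowest adjusted p of 0.0918. Among all 14146 tested genes 13.5% were lower and 13.4% higher by the edgeR test, or 26.8% in either direction. The count of 0 higher members was also 0 at an unadjusted p under 0.05 and 0 with the DESeq2 Wald test, and it was 1, Ctss, with limma-voom and quality weights. The median log2 fold change (GWI against Control) was −0.92 over the 9 tested members and −0.06 over all tested genes, of which 55.2% had a negative value. Cd86 was tested only because of its level in the Control group, and with at least 10 counts asked of every mouse it was not tested and 7 of 8 members were lower. In bulk tissue, fewer cells of a type and less RNA per cell cannot be told apart.

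The call of 8 lower members did not hold in every fit. It was 0 with the first part of the sample name as a random block, 0 with a covariate for smooth muscle against epithelium markers, 0 with a covariate for leukocyte markers and 2 with a covariate for small intestine markers, while 4, 4, 7 and 5 members had an unadjusted p under 0.05 in these fits, in that order. The fold changes of the 8 genes stayed below 0. With the block they ran from −1.08, for Cd86, to −0.55, for H2-DMa, with adjusted p values of 0.0918 to 0.269. With the muscle covariate they ran from −1.36, for H2-DMb1, to −0.27, for H2-Eb1, with adjusted p values of 0.0574 to 0.589. With the leukocyte covariate they ran from −1.06, for H2-DMb1, to −0.50, for H2-Eb1, with adjusted p values of 0.0502 to 0.157. The count of lower members was 4 without Control replicates 6 and 7, where H2-Aa, H2-Ab1, H2-DMb1 and Cd86 were called, 7 without Control replicates 6, 7 and 9, 5 without GWI replicate 7 and 7 with limma-voom and quality weights. The first parts of the sample names, a number for Control and letters for GWI mice, are not defined in the sources used here. Some are shared by several mice and some belong to a single mouse. No first part holds mice of both groups, so the block cannot compare the groups within a first part. The main test treats the mice as independent.

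**Figure D1:**
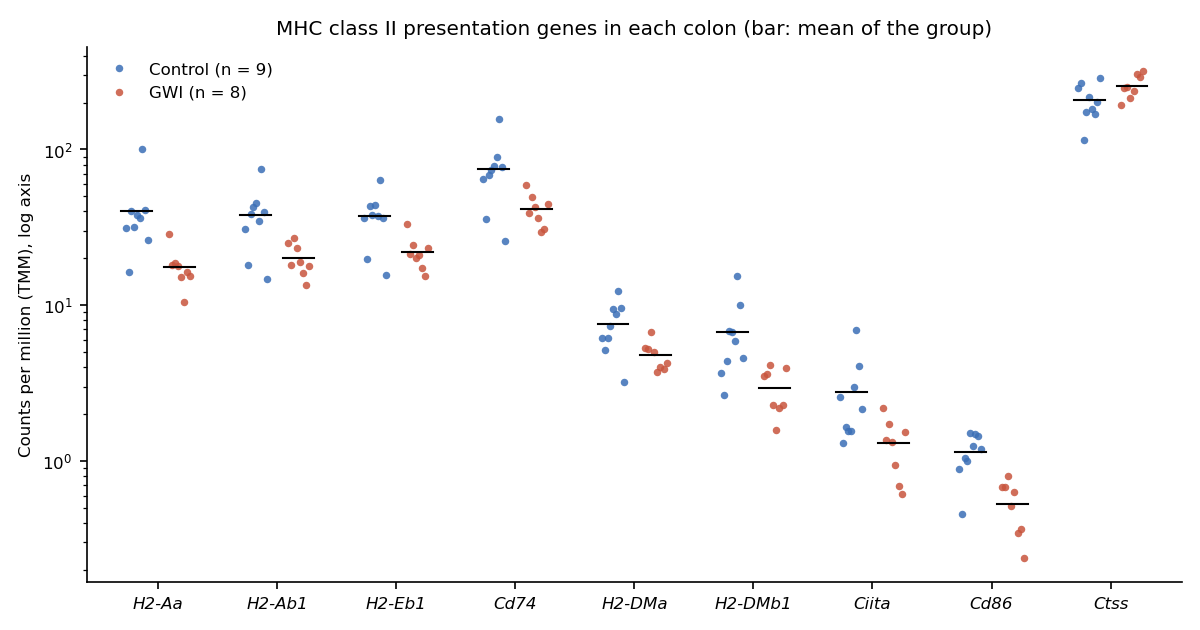
TMM-scaled CPM of the 9 tested members in each colon, on a log axis, with 9 Control and 8 GWI mice as points in the order of their replicate numbers and the group mean as a bar. The groups overlap for each gene; Control replicate 7 is the highest Control point of H2-Aa, at 101 CPM, and GWI replicate 8 the highest Ctss point, at 317 CPM.

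H2-Aa encodes the alpha chain of I-A, a classical class II molecule of the mouse. Its level ran from 16.4 CPM through a median of 36.5 to 101 CPM in the Control colons and from 10.5 through 17.1 to 28.7 CPM in the GWI colons. The groups overlapped: 4 of the 8 GWI colons lay below every Control colon, 7 of the 9 Control colons lay above every GWI colon, and Control replicate 7 was the highest of the 17. Mean levels were 40.2 ± 23.9 CPM (SD, n = 9) and 17.6 ± 5.18 CPM (SD, n = 8). The log2 fold change was −1.19 (SE 0.27), with an edgeR adjusted p of 0.00592. Without any single colon the call of H2-Aa held, at adjusted p values of up to 0.0146. All 8 GWI colons lay below the Control median.

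H2-Ab1, the beta chain that pairs with it, ran from 14.7 CPM through a median of 38.4 to 74.7 CPM in the Control colons and from 13.5 through 18.5 to 27.2 CPM in the GWI colons. The high Control colon was again replicate 7, and the low ones were replicates 9 and 2, which lay within the GWI range. H2-Ab1 had a log2 fold change of −0.92 (SE 0.25, edgeR adjusted p = 0.0134), from 37.7 ± 17.4 CPM (SD, n = 9) to 20.0 ± 4.66 CPM (SD, n = 8), with 8 of 8 GWI colons below the Control median.

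H2-Eb1 encodes the beta chain of I-E. The I-E alpha chain gene is a pseudogene in this strain, listed as H2-Ea-ps, and it had 1 count in the 17 colons together. H2-Eb1 ran from 15.5 CPM through a median of 37.4 to 64.1 CPM in the Control colons and from 15.5 through 21.1 to 33.0 CPM in the GWI colons. Control replicates 2 and 9 lay inside the GWI range and the other 7 Control colons lay above it. The log2 fold change was −0.76 (SE 0.22, edgeR adjusted p = 0.0185), from 37.1 ± 14.1 CPM (SD, n = 9) to 22.0 ± 5.30 CPM (SD, n = 8). Without Control replicates 6 and 7 the adjusted p of H2-Eb1 was 0.0569.

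Cd74 is the invariant chain, which holds the groove of new class II molecules and guides them to endosomes. It ran from 25.9 CPM through a median of 74.0 to 157 CPM in the Control colons and from 29.6 through 41.0 to 59.0 CPM in the GWI colons. The lowest of the 17 colons was Control replicate 9 and the highest Control replicate 7, so the Control range enclosed the GWI range. Cd74 had a log2 fold change of −0.84 (SE 0.26, edgeR adjusted p = 0.0238), from 74.5 ± 37.0 CPM (SD, n = 9) to 41.5 ± 9.73 CPM (SD, n = 8). The call was lost without GWI replicate 7 (adjusted p = 0.0504) and without Control replicates 6 and 7 (adjusted p = 0.0855).

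H2-DMa and H2-DMb1 encode chains of H2-DM, which exchanges the invariant chain remnant for peptide. H2-DMb1 ran from 2.67 CPM through a median of 5.89 to 15.5 CPM in the Control colons and from 1.58 through 2.89 to 4.13 CPM in the GWI colons, with 4 GWI colons below every Control colon and 7 Control colons above every GWI colon. Its log2 fold change was −1.19 (SE 0.31, edgeR adjusted p = 0.0110), from 6.70 ± 3.94 CPM (SD, n = 9) to 2.94 ± 0.96 CPM (SD, n = 8). H2-DMb1 has a close paralog, H2-DMb2, and since unique hits were counted the levels of both are uncertain where their sequences match.

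H2-DMa ran from 3.21 CPM through a median of 7.35 to 12.4 CPM in the Control colons and from 3.72 through 4.64 to 6.71 CPM in the GWI colons. No GWI colon lay below every Control colon, because Control replicate 9 was the lowest of the 17. The log2 fold change of H2-DMa was −0.67 (SE 0.22, edgeR adjusted p = 0.0289), from 7.59 ± 2.76 CPM (SD, n = 9) to 4.77 ± 1.01 CPM (SD, n = 8), with 8 of 8 GWI colons below the Control median. The call was lost without Control replicate 5 (adjusted p = 0.0545), Control replicate 7 (0.0550), GWI replicate 6 (0.0568) or GWI replicate 7 (0.0591), and without Control replicates 6 and 7 together (0.0985). Exons of H2-DMa share 360 bases with Brd2 on the other strand, and with the strand setting not given in the sources used here reads of that stretch cannot be told apart.

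H2-Oa, the alpha chain of H2-O, which restrains H2-DM, had 0 to 12 counts in the Control colons, with a median of 6, and 1 to 8 in the GWI colons, with a median of 4.5. It failed the filter, with 2 Control and 0 GWI colons over the limit of 0.563 CPM. Fitted without the filter, its log2 fold change was −0.53 (SE 0.50, edgeR adjusted p = 0.459), so no difference was detectable at this depth. Exons of H2-Oa overlap BC051537 on the other strand.

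Ciita is the transactivator without which class II genes are not read. Its counts were 23 to 126 in the Control colons, with a median of 32, and 10 to 42 in the GWI colons, with a median of 23.5. In CPM GWI replicates 5, 6 and 7 lay below every Control colon and Control replicates 6, 7, 8 and 1 above every GWI colon. Ciita had a log2 fold change of −1.08 (SE 0.35, edgeR adjusted p = 0.0283), from 2.76 ± 1.80 CPM (SD, n = 9) to 1.30 ± 0.53 CPM (SD, n = 8), with 7 of 8 GWI colons below the Control median. The call was lost without Control replicate 7 (adjusted p = 0.0565), GWI replicate 6 (0.0576) or GWI replicate 7 (0.0581), without Control replicates 6 and 7 (0.1003), without Control replicates 6, 7 and 9 (0.116), and with limma-voom and quality weights (0.0680). Exons of Ciita share 329 bases with Dexi on the other strand.

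Ctss, cathepsin S, trims the invariant chain in antigen-presenting cells. It ran from 115 CPM through a median of 202 to 287 CPM in the Control colons and from 193 through 249 to 317 CPM in the GWI colons. GWI replicates 6, 7 and 8 lay above every Control colon, and Control replicate 3 was the lowest of the 17. The log2 fold change of Ctss was 0.31 (SE 0.16, edgeR adjusted p = 0.136), from 207 ± 54.2 CPM (SD, n = 9) to 257 ± 43.8 CPM (SD, n = 8), and it did not pass the test. With limma-voom and quality weights Ctss was higher (adjusted p = 0.0130), and with the covariate for smooth muscle against epithelium its log2 fold change was −0.02 (adjusted p = 0.953).

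Cd86 is a costimulatory ligand that presenting cells show to CD28 on T cells. Its counts were low, 8 to 31 in the Control colons, with a median of 20, and 4 to 15 in the GWI colons, with a median of 9.5. It passed the filter, which asked for 8 colons over the limit, only through the Control group, with 8 Control and 4 GWI colons over it, so its lower level in the GWI group is tied to its being tested. In CPM Control replicate 2 was the only Control colon within the GWI range. Cd86 had a log2 fold change of −1.09 (SE 0.26, edgeR adjusted p = 0.00775), from 1.14 ± 0.34 CPM (SD, n = 9) to 0.53 ± 0.20 CPM (SD, n = 8).

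For none of the 9 tested members were all GWI colons below, or all above, every Control colon, a separation seen downward in 0.523% and upward in 1.83% of the tested genes. Levels differed widely between the members when divided by exon length. In the Control colons Ctss was at 152 ± 39.9 CPM per kb (SD, n = 9), Cd74 at 44.3 ± 22.0 CPM per kb and H2-Eb1 at 19.1 ± 7.23 CPM per kb. H2-Ab1 was at 14.7 ± 6.79 CPM per kb and H2-Aa at 10.6 ± 6.30 CPM per kb, so the group values of the 3 chains overlapped. Within a colon H2-Eb1 was above H2-Ab1 in all 17 mice, with a ratio of 1.13 to 1.55 in the Control and 1.15 to 1.74 in the GWI colons, and above H2-Aa, with a ratio of 1.16 to 2.36 and 1.86 to 3.25. H2-DMb1 was at 3.99 ± 2.35 CPM per kb and H2-DMa at 2.20 ± 0.80 CPM per kb. Cd86, Ciita and H2-Oa were lowest, at 0.312, 0.290 and 0.238 CPM per kb.

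The members moved together from colon to colon, with Ctss apart. Over the 17 mice, which hold both groups, the Spearman correlation of a tested member with the mean of the other tested members was between 0.81, for Cd86, and 0.92, for H2-Aa, and it was −0.76 for Ctss. Control replicate 7 ranked first of 17 for H2-Aa, H2-Ab1, H2-Eb1, H2-DMa, H2-DMb1, Cd74 and Ciita. Control replicate 9 ranked 16 or 17 for H2-Ab1, H2-Eb1, H2-DMa and Cd74, but 9 for H2-Aa, 6 for H2-DMb1 and Ciita and 5 for Cd86. Its ratio of H2-Aa to H2-Ab1, in CPM per kb, was 1.21, where the Control median was 0.694 and the GWI colons ran from 0.440 to 0.814.

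The 10 tested genes outside the members whose levels followed the mean of the tested members most closely over the 17 mice were Clec7a (Spearman correlation 0.87), Arhgap30 (0.85), Mpeg1 (0.84), Evi2a (0.82), Gpatch4 (0.82), Csf2rb (0.82), Lrrc55 (0.81), Lyz2 (0.81), Arhgef15 (0.81) and Clec4n (0.81). These genes were chosen by a correlation over both groups, so their direction follows from the choice. Clec7a, which encodes the beta-glucan receptor dectin-1, had a log2 fold change of −1.39 (edgeR adjusted p = 0.00141), Lyz2, the lysozyme of myeloid cells, one of −0.64 (0.0188), and Mpeg1, the macrophage pore protein perforin-2, one of −0.67 (0.00612). Gpatch4 was at −0.56 (edgeR adjusted p = 0.00149), Clec4n at −0.81 (0.0150), Evi2a at −0.71 (0.0237) and Arhgef15 at −0.68 (0.0331). Arhgap30 (edgeR adjusted p = 0.0751), Csf2rb (0.0549) and Lrrc55 (0.0848) were not called. With the first part of the sample name as a random block none of the 10 was called, and the adjusted p values of those called before ran from 0.0553, for Gpatch4, to 0.172, for Arhgef15. Without Control replicates 6 and 7 the adjusted p was 0.0800 for Evi2a and 0.0891 for Arhgef15. Evi2a was also lost without GWI replicate 7 (0.0514), and Arhgef15 was called in 7 of the 17 fits that each left out 1 colon, up to an adjusted p of 0.0618 without GWI replicate 4.

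Calls of the genes named from here on that changed when 1 colon was left out are given as the number of such fits, of 17, that kept them, with the highest adjusted p. With the first part of the sample name as a random block, Ifng (adjusted p = 0.0342), Btnl2 (0.0415) and Cdh1 (0.0492) were the called genes among them that were still called.

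The other class II chains were scarce. H2-Ob, the partner of H2-Oa, had a log2 fold change of −0.48 (SE 0.42, edgeR adjusted p = 0.405), and H2-DMb2 one of −0.76 (SE 0.43, edgeR adjusted p = 0.187), so 0 of these 2 tested chains were called, as with the DESeq2 Wald test and at an unadjusted p under 0.05, and 1 was lower with limma-voom and quality weights. H2-Eb2 and H2-Ea-ps failed the filter. The median over the tested pair was −0.62.

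Of the 8 tested genes that process antigen in endosomes, 1 was higher and 1 lower, with a median log2 fold change of 0.27. Among all tested genes 26.8% were called in either direction. At an unadjusted p under 0.05, 3 of the list were higher and 1 lower, and with limma-voom and quality weights also 3 and 1. With the DESeq2 Wald test 2 were higher and 1 lower, and with the sample name block none was called. Ctsl, a protease that trims the invariant chain in thymic epithelium, was higher, from 132 ± 17.1 CPM (SD, n = 9) to 162 ± 23.0 CPM (SD, n = 8), a log2 fold change of 0.29 (SE 0.10, edgeR adjusted p = 0.0359), but it was called in 7 of the 17 fits that each left out 1 colon, with an adjusted p of up to 0.0793 without GWI replicate 7 and of 0.0838 without Control replicates 6 and 7. Cst3, cystatin C, an inhibitor of cathepsins, was lower, at −0.32 (SE 0.09, edgeR adjusted p = 0.0162). The other 6 were Ifi30, the thiol reductase, at 0.35 (edgeR adjusted p = 0.0723), Ctsb at 0.33 (0.0721), Lgmn at 0.26, Sppl2a at 0.38, Ctsd at −0.01 and Ctsh at −0.03. The ubiquitin ligase genes March1 and March8 were not analysed here.

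RFX, NF-Y and CREB factors bind class II promoters. For Rfx5, Rfxap, Rfxank, Nfya, Nfyb, Nfyc and Creb1 the log2 fold changes ran from −0.23 to 0.32 around a median of 0.03, and 0 of 7 were called. At an unadjusted p under 0.05 the count was 1, Rfxank, and it was 0 with the DESeq2 Wald test and 1 with limma-voom and quality weights.

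Among all tested genes 13.4% were higher by the edgeR test. On the route from interferon gamma to Ciita, 4 of 8 tested genes were higher and 0 lower. They were Ifng, the cytokine, its receptor chain Ifngr1 at 0.50 (SE 0.17, edgeR adjusted p = 0.0384), the kinase Jak1 at 0.26 (SE 0.07, edgeR adjusted p = 0.0102) and the transcription factor Irf1 at 0.60 (SE 0.13, edgeR adjusted p = 0.00480). Jak2 was at 0.19, Ifngr2 at 0.11 and Socs1 at 0.00, and none of these passed the test. At an unadjusted p under 0.05 and with the DESeq2 Wald test 4 of the list were also higher and 0 lower. With limma-voom and quality weights 6 were higher and 0 lower, and with the sample name block 1 and 0. Ifngr1 was called in 4 of the 17 fits, with an adjusted p of up to 0.0746 without GWI replicate 6 and of 0.105 without Control replicates 6 and 7, while Jak1 and Irf1 were called in all 17.

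The Ifng counts were uneven. They were 323 to 844 in Control replicates 1 to 8, 9678 in Control replicate 9 and 2377 to 9867 in the GWI colons, for a log2 fold change of 2.11 (SE 0.73, edgeR adjusted p = 0.0394). The call was kept in 3 of the 17 fits, with an adjusted p of up to 0.0649 without GWI replicate 7 and of 0.0972 without Control replicates 6 and 7, and the log2 fold change reached 4.00 without Control replicate 9. Of the 9 counts with 4 digits, 8 were written with digits of 5 or more alone. Control replicate 9, with an Ifng count inside the GWI range, ranked 6 of 17 for Ciita, and the GWI colons ranked 5 to 17. Cd3e, Cd3d, Cd3g, Cd4 and Cd8a, markers of T cells, which make interferon gamma, were tested and 0 of 5 were called in either direction, also with the DESeq2 Wald test, with limma-voom and quality weights and at an unadjusted p under 0.05. The summed level of the T cell list with Cd8b1 was 2.02 to 10.9 CPM in the Control colons and 1.64 to 12.3 CPM in the GWI colons, with Cd8a, Cd3g or Cd4 the most abundant gene. How the Ifng counts arose was not tested, and the class II values do not rest on them.

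Among other costimulatory and coinhibitory ligands and receptors of presenting cells 1 of 4 tested genes was higher, the receptor Cd40, and 0 were lower, with a median of 0.31. Cd40 had 12 to 23 counts in the Control colons, with a median of 18, and 13 to 111 in the GWI colons, with a median of 66. All GWI colons but replicate 1 lay above every Control colon in CPM, and the log2 fold change was 2.02 (SE 0.32, edgeR adjusted p = 0.000702). Cd83 was at −0.85 (SE 0.34, edgeR adjusted p = 0.0728) and was the gene with a lower level at an unadjusted p under 0.05. Of the 4 genes 2 were higher and 1 lower at an unadjusted p under 0.05 and with the DESeq2 Wald test, and 3 higher and 1 lower with limma-voom and quality weights, while none was called in either direction with the sample name block. Icosl was at 0.24 and Cd274 at 0.38 (edgeR adjusted p = 0.0668). Cd80, Pdcd1lg2 and Tnfsf4 failed the filter.

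Of the T cell receptors for class II or CD86 only Cd4, at −0.50 (edgeR adjusted p = 0.314), and Lag3, at −0.44 (edgeR adjusted p = 0.239), were tested, and 0 of 2 were called, as at an unadjusted p under 0.05 and with the DESeq2 Wald test, while 1 was lower with limma-voom and quality weights. Cd28, Ctla4 and Icos failed the filter.

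MHC class I molecules present peptides from the cytosol. Of 9 tested class I genes 1 was higher and 0 lower, with a median log2 fold change of 0.06. Among all tested genes 13.4% were higher and 13.5% lower by the edgeR test. H2-K1, a classical heavy chain, rose from 864 ± 175 CPM (SD, n = 9) to 1173 ± 179 CPM (SD, n = 8), a log2 fold change of 0.44 (SE 0.13, edgeR adjusted p = 0.0228), and its adjusted p was 0.0591 without Control replicates 6 and 7. H2-D1 was at 0.29 (edgeR adjusted p = 0.0825), B2m, the shared light chain, at −0.21 (0.427), and Nlrc5, the class I counterpart of Ciita, at −0.31 (0.339). Tap1, Tap2, Tapbp, Psmb8 and Psmb9 ran from −0.40 to 0.50, and none was called. At an unadjusted p under 0.05, 3 class I genes were higher and 0 lower, with the DESeq2 Wald test 2 and 0, and with limma-voom and quality weights 2 and 1. With the sample name block none was called. The difference between the class I and class II genes was not tested.

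H2-Aa, H2-Ab1, H2-Eb1, H2-DMa and H2-DMb1 lie together on chromosome 17 with H2-Oa (GRCm38, GENCODE M21). H2-Aa spans chr17:34282744-34287823 on the minus strand and H2-Ab1 chr17:34257689-34269419 on the plus strand. Within the stretch chr17:33992340-34416674, set by the outermost class II members and 100 kb on either side, 20 genes were tested, of which 5 were members. Of the other 15 genes 4 were higher and the rest were not called, and their median log2 fold change was 0.14. The higher ones, named after their values were seen, were H2-K1, Slc39a7, a zinc transporter, at 0.46 (edgeR adjusted p = 0.0466, kept in 6 of the 17 fits, up to 0.0985 without GWI replicate 1), and the butyrophilin-like genes Btnl2 at 1.10 (edgeR adjusted p = 0.000787) and Btnl1 at 0.75 (edgeR adjusted p = 0.00427). Psmb9, Tap1, Psmb8 and Tap2, which lie between H2-DMb1 and H2-Ab1, were at −0.40, 0.06, −0.25 and 0.28.

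**Figure D2:**
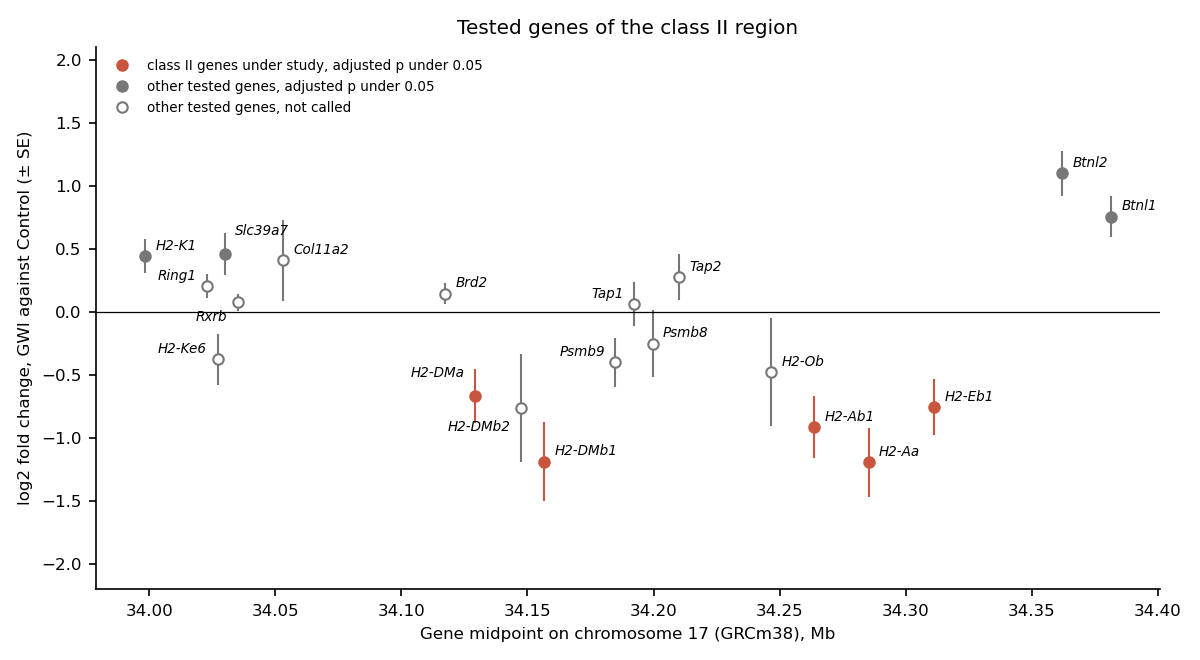
log2 fold change (GWI against Control, bars ± SE) of the 20 tested genes of the class II region against the midpoint of each gene on chromosome 17 (GRCm38, Mb), with members in red and other genes in grey, filled where the edgeR adjusted p was under 0.05. The 5 members lie between −1.19 and −0.67, and the filled grey points lie above 0.

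The promoters of class II genes are known for a conserved array of boxes bound by RFX, CREB and NF-Y, with which Ciita works. RefSeq promoters (GRCm38.p6, 250 bases before to 50 after the gene start) were found for 6 of the 10 members, and not for H2-Ab1, Cd74, Ciita and Cd86. The letters ATTGG, the core of the Y box, were searched on both strands and stood in 37.4% of 32851 promoters. The letters AAC, any 3 bases and TGATG, an X box pattern searched in the same way and chosen after these sequences were seen, stood in 0.615%, and such a pattern followed by ATTGG within 40 bases in 0.0335%, or 11 promoters, of which H2-Eb1, H2-DMb1, H2-Ob and H2-DMb2 are class II genes. The stretches from 130 to 21 bases before the start are shown because the members moved together, with the matches of both patterns, on either strand, in capitals. H2-Aa lies at chr17:34287844-34287953 on the minus strand, H2-Eb1 at chr17:34305737-34305846, H2-DMb1 at chr17:34153061-34153170, H2-Ob at chr17:34238775-34238884 and H2-Oa at chr17:34092249-34092358 on the plus strand, and Ctss at chr3:95526656-95526765 on the plus strand.
H2-Aa: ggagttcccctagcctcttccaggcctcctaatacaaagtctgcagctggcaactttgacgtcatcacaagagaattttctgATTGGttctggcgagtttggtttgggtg
H2-Eb1: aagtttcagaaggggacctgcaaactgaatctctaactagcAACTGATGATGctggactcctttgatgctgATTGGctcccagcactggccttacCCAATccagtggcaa
H2-DMb1: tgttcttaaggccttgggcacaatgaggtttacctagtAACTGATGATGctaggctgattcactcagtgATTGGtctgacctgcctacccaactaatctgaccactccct
H2-Ob: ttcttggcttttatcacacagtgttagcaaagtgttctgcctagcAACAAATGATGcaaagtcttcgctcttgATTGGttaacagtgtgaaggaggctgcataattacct
H2-Oa: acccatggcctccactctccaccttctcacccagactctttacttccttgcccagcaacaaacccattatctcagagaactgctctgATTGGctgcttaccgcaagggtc
Ctss: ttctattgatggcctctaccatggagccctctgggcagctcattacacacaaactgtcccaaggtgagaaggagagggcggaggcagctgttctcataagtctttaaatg
H2-Eb1 and H2-DMb1, which were lower, and H2-Ob, which was not called, held both patterns in this order. H2-Aa and H2-Oa held ATTGG without a match of the X box pattern, and the 300 bases of Ctss matched neither. The X box pattern covers a fixed set of letters, so the lack of a match does not show that a promoter lacks an X box. H2-DMa, which was lower, has 2 promoters in RefSeq, not printed here, and the X box pattern stood in neither. ATTGG stood in the second of them, 198 bases before the start, and not in the first. A match is a description of letters and no binding was measured.

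Markers of several cell types and tissue layers moved in the same comparison. Among all tested genes 13.5% were lower and 13.4% higher by the edgeR test, and 55.2% had a negative log2 fold change. All 5 leukocyte markers were below 0 in log2 fold change (median −0.55), and 2 of the 5 were lower, Coro1a at −0.55 (SE 0.17, edgeR adjusted p = 0.0219) and Cd53 at −0.59 (SE 0.21, edgeR adjusted p = 0.0425). The count was 3 at an unadjusted p under 0.05, with the DESeq2 Wald test and with limma-voom and quality weights. With the sample name block it was 0. Coro1a was called in all 17 fits that left out 1 colon and Cd53 in 5, with an adjusted p of up to 0.0736 without GWI replicate 7 and of 0.0747 without Control replicates 6 and 7. Ptprc, the most abundant of them in 12 colons, was at −0.21 (edgeR adjusted p = 0.448). Their summed level was 25.0 to 57.0 CPM in the Control colons, with a median of 35.9, and 23.2 to 37.0 CPM in the GWI colons, with a median of 27.2, and no marker was at 0. With the mean score of these markers as a covariate the lowest adjusted p of a member was 0.0502, and the part of the leukocyte markers in the class II values was not tested further.

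Of the 11 dendritic cell markers 5 were tested, of which Itgax (CD11c) was lower, at −0.65 (SE 0.22, edgeR adjusted p = 0.0386), and Irf8 higher, at 0.38 (SE 0.13, edgeR adjusted p = 0.0400), with a median of −0.53. Itgax was called in 7 of the 17 fits, up to an adjusted p of 0.0789 without GWI replicate 7, and Irf8 in 4, up to 0.0758 without GWI replicate 3. Irf8 was the most abundant gene of the list in each colon, so the summed level, 65.5 to 121 CPM in the Control and 74.2 to 120 CPM in the GWI colons, followed it. Xcr1 was at 0 in GWI replicates 2, 4, 6 and 7, Cd209a in GWI replicate 4 and Ccr7 in Control replicate 2 and GWI replicate 6. Of 10 tested macrophage markers Mrc1 was lower, at −0.55 (SE 0.18, edgeR adjusted p = 0.0287), and Mertk, the most abundant, higher, at 0.56 (SE 0.13, edgeR adjusted p = 0.00548), with a median of −0.35 and negative values for 9. At an unadjusted p under 0.05, 4 of the 10 were lower and 1 higher, with the DESeq2 Wald test 3 and 1, with limma-voom and quality weights 7 and 1, and with the sample name block 0 and 0. Mrc1 was called in 12 of the 17 fits, up to an adjusted p of 0.0584 without GWI replicate 6, and its adjusted p was 0.0871 without Control replicates 6 and 7. Their summed level was 83.3 to 114 CPM in the Control and 90.2 to 109 CPM in the GWI colons. The part of dendritic cells and macrophages in the class II values was not tested.

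B cell markers were near the floor, with 2 of 11 tested, Ms4a1 at −0.25 and Cxcr5 at 0.05, and 0 called, as with the DESeq2 Wald test, with limma-voom and at an unadjusted p under 0.05. Their summed level was 2.44 to 16.4 CPM in the Control and 1.90 to 10.6 CPM in the GWI colons, highest in replicate 1 of each group, and Pax5 was at 0 in Control replicate 2 and in GWI replicates 6 and 8. Of 3 tested plasma cell markers Sdc1, also an epithelial gene and the most abundant of the list, was higher, at 0.46 (SE 0.12, edgeR adjusted p = 0.0103). Jchain was at −0.25 and Mzb1 at −0.47, and neither was called. The summed level of the plasma cell list was 218 to 558 CPM in the Control and 333 to 496 CPM in the GWI colons. The follicle chemokine Cxcl13 was at −0.50 (edgeR adjusted p = 0.161), and Ccl21a and Ccl19 failed the filter.

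Smooth muscle markers differed between the groups. Of 10 tested markers 7 were lower (Acta2, Myh11, Tagln, Synpo2, Lmod1, Smtn and Mylk), 10 were lower at an unadjusted p under 0.05, 9 with the DESeq2 Wald test, 10 with limma-voom and 0 with the sample name block, all 10 were below 0 in log2 fold change and the median was −0.91, against −0.92 for the tested members. Tagln and Mylk were called in all 17 fits that left out 1 colon, Synpo2 in 12, and Acta2, Myh11, Lmod1 and Smtn in 5 each, with an adjusted p of up to 0.104, for Acta2 without Control replicate 6. Without Control replicates 6 and 7 together Tagln and Mylk were called, and the adjusted p was 0.0938 for Acta2, 0.0792 for Myh11, 0.0930 for Lmod1, 0.0865 for Smtn and 0.0593 for Synpo2. Their summed level was 3690 to 23923 CPM in the Control colons, with a median of 11584, and 3658 to 11832 CPM in the GWI colons, with a median of 5142, with Myh11 the most abundant in 16 colons and no marker at 0. Control replicate 7, highest in class II transcripts, was at 6790 CPM, below the Control median. Control replicate 9 was the lowest Control colon, at 3690 CPM, and ranked 17 for Cd74 and H2-DMa but 6 for H2-DMb1 and Ciita. Of 10 colon epithelium markers 5 were higher (Muc2, Epcam, Cdh1, Vil1 and Cdx2) and 0 lower, also 0 at an unadjusted p under 0.05, with the DESeq2 Wald test and with limma-voom, which gave 5, 5 and 8 higher, against 1 with the sample name block, and the median was 0.39. Cdh1, Vil1 and Cdx2 were called in all 17 fits, Muc2 in 6 and Epcam in 4, with an adjusted p of up to 0.0967, for Epcam without GWI replicate 6. Without Control replicates 6 and 7 the adjusted p was 0.0602 for Muc2 and 0.111 for Epcam. Car1 or Muc2 was the most abundant epithelial marker in each colon, and no marker was at 0. With the difference of the 2 mean scores as a covariate the log2 fold changes of the tested members were all negative, the lowest adjusted p was 0.0574 and the highest among the 8 lower members 0.589, for H2-Eb1. The part of the tissue layers in the class II values cannot be told apart from the group with the layers unnamed.

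Of 5 tested small intestine markers Fabp6, Anpep and Lyz1 were lower, at −4.40, −3.10 and −4.42, through Control replicates 6 and 7, and none was called with limma-voom and quality weights. Without these colons the adjusted p values were 0.0814, 0.555 and 0.0854, and without Control replicate 7 alone that of Anpep was 0.0761. Fabp2 was the most abundant of the list in each colon, and the summed level was 593 to 2404 CPM in the Control and 390 to 978 CPM in the GWI colons. Lct was at 0 in Control replicates 2 and 8, and Apoa4 in 12 colons. With these markers as a covariate 2 members were called lower, H2-Aa and Cd86, the latter tested only through its level in the Control group. Of 4 adipocyte markers Cidec, the most abundant in each colon, was higher, at 0.99 (SE 0.33, edgeR adjusted p = 0.0365, kept in 8 of the 17 fits, up to 0.101 without GWI replicate 7, and 0.0945 without Control replicates 6 and 7), and the summed level was 15.9 to 112 CPM in the Control and 45.1 to 327 CPM in the GWI colons. The part of these tissues in the class II values was not tested beyond the fits named here.

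**Figure D3:**
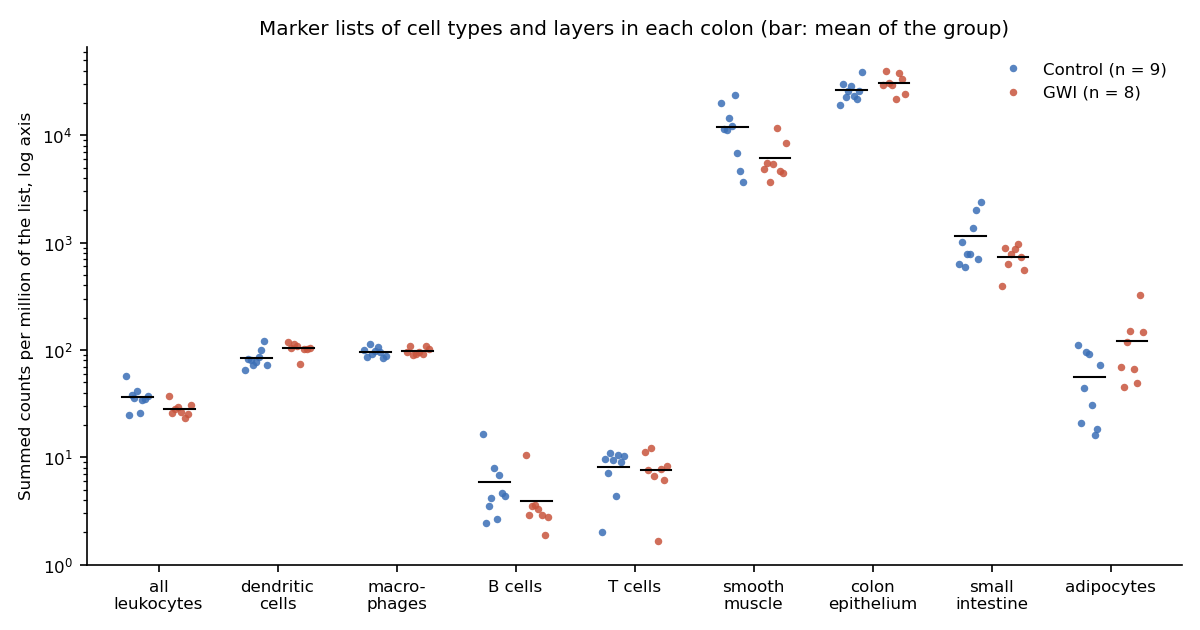
Summed TMM-scaled CPM of each marker list in each colon, on a log axis, with 9 Control and 8 GWI mice as points in the order of their replicate numbers and the group mean as a bar. Smooth muscle lists reach 23923 CPM in the Control group and 11832 CPM in the GWI group, and the groups overlap for each list.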

How the data were processed

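RNA from 17 mouse colons was analysed. Per the study's methods, the authors selected poly(A) RNA, sequenced paired ends, trimmed reads with Trimmomatic 0.36, mapped them to GRCm38 with STAR 2.5.2b and deposited unique gene hit counts from featureCounts. The deposited values were whole counts without normalization. The annotation release and strand setting were not given in the sources used here. All 17 columns matched a sample, and 0 were left over. Counts were filtered with filterByExpr (minimum count 10), scaled by TMM and tested with edgeR 4.0.16 under R 4.3.3 (robust glmQLFit, glmQLFTest) on all 14146 tested genes, with the group as the only term and Benjamini-Hochberg adjustment. Calls were made at an adjusted p under 0.05. SE values were derived from the fold change and its F statistic. Levels are TMM-scaled CPM, divided by GENCODE M21 exon length where genes were compared. Alternatives used limma 3.58.1, DESeq2 1.42.0, other scalings and filters, blocks, covariates and left-out mice. Members and lists were chosen with earlier results of these data known. Some values of list genes are not reported here. Genes were named from the members, those lists and the 10 genes most like the members by Spearman correlation. Others were named from the class II region of chromosome 17, from exon overlaps with members and from the head of the table. No 2 libraries agreed within sampling noise.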

Additional observations from a re-analysis of the deposited data

Results flagged for a closer look

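Each of 20 groups of values, the 10 members in the Control and in the GWI mice, was examined on the log2 CPM scale for a highest or lowest colon set off from the others. In 2 of the 20 the gap to the nearest colon was a larger share of the whole range than Dixon's 95% limit for the group's size, and chance gives about 1 in 20 groups.

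H2-Aa in Control replicate 7 was at 101 CPM, with the next Control colon, replicate 8, at 40.9 CPM, and this gap was 0.497 of the range. Without this colon H2-Aa was still called lower in GWI colons, and the highest adjusted p of H2-Aa over the fits that left out 1 colon was 0.0146.

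Cd86 in Control replicate 2 had 8 counts, or 0.455 CPM, with the next Control colon, replicate 1, at 0.884 CPM, and this gap was 0.534 of the range. Without this colon the edgeR adjusted p of Cd86 was 0.00306. In the main test Cd86 passed the filter only through its level in the Control group.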

How the results depend on the processing

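The members' fold changes kept their direction in the alternatives run, except Ctss with the covariate for smooth muscle against epithelium (−0.022). Over fits that left out 1 mouse each, 5 to 8 members were lower and 0 higher, and all genes gave 1309 to 2295 lower and 1472 to 2523 higher. The pathway lists, with 1 gene lower and 7 higher, gave 1 to 3 and 4 to 11, and the marker lists, with 14 and 9, gave 6 to 18 and 5 to 13. Of the member results 145 were on the same side of the threshold in these fits and 8 were lost, and in the other alternatives 92 were on the same side, 40 were lost, 1 was gained and 1 turned. The cause was not tested for the values below.

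Upper-quartile factors gave 2992 genes lower and 1214 higher, with 2 pathway genes lower and 3 higher. Without a filter on low counts 4 pathway and 5 marker genes were higher. With at least 10 counts asked of every mouse Cd86 was not tested and 7 members were lower. The DESeq2 Wald test gave 2 pathway genes lower. Limma-voom with quality weights gave 4180 genes lower and 3911 higher, with 1 member higher, 5 pathway genes lower and 15 higher, and 22 marker genes lower. A covariate for smooth muscle against epithelium moved the median of all genes by 0.11 and gave 0 members lower, 852 genes higher, 4 pathway genes lower and 1 higher, and 1 marker gene lower and 0 higher. A covariate for small intestine markers gave 2 members lower, 1093 genes lower and 1223 higher, 3 pathway genes higher, and 6 marker genes lower and 4 higher. A covariate for leukocyte markers gave 0 members lower, 1145 genes lower, 3 pathway genes higher and 6 marker genes lower. Without Control replicates 6 and 7, 4 members were lower, 3 pathway genes were higher and 5 marker genes lower. Without Control replicates 6, 7 and 9, a choice made after seeing the data, 4 marker genes were higher.

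With the replicate number as a block (replicate block) 4 members were lower, 826 genes were lower, and 5 marker genes were lower and 4 higher. The numbers share no more than a label: over 8 same-numbered pairs the correlation of deviations ran from −0.51 to 0.11, 1 was over 0.1, and 0 of the Control mice correlated best with their own number. With the first part of the sample name as a random block (correlation 0.62) 0 members were lower, 94 genes were lower and 376 higher, 0 pathway genes were lower and 1 higher, and 0 marker genes were lower and 1 higher. In the 9 pairs of mice that share a first part the median correlation of deviations was 0.19, against −0.21 in the 55 other pairs within a group.

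Depth limits H2-Oa, Cd86, Ciita and the B cell markers, which had few counts.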

Other observations

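Il4, Il6 and Chat stood as the first 3 entries of the table, ahead of Aaas, the entry at which the alphabetical order begins. Il4 had 20 to 69 counts in the Control colons and 30 to 880 in the GWI colons. Il6 had 2110 to 4112 counts in the Control and 2457 to 5601 in the GWI colons. Chat had 1231 to 3754 counts in the Control and 2822 to 3983 in the GWI colons. What sets these entries apart was not tested.

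The ratio of Ctss to Cd74, in CPM per kb, was 1.34 to 13.7 in the Control colons, with a median of 3.22, and 4.04 to 12.7 in the GWI colons, with a median of 7.90. The highest of the 17 values was in Control replicate 9.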
